A study of Mus musculus with 62 samples.

Results

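Neat1, Malat1, Meg3, Rian, Mirg, Miat, Gas5 and Snhg11 are long RNAs that are best known for what they do as RNA and not for a protein. They were taken by gene name from the count table, 8 of its 56415 genes, having been selected on their count level with earlier results of these data known, so their levels are given as a description and not tested. The isoform table holds 491 isoforms of these genes among 218795. Among 56098 genes ranked by saline level per kilobase of exon, Meg3 ranked 186th to 755th over the 5 regions, Snhg11 205th to 626th and Malat1 434th to 826th. Miat ranked 1220th to 4705th, Gas5 2008th to 3415th and Rian 2341st to 4899th. Neat1, at 9225th to 14117th, and Mirg, at 10284th to 16061st, were not abundant on this scale. By CPM, without exon length, Neat1 ranked 2297th to 5545th and Mirg 6071st to 11074th. The Neat1 rank per kilobase rests on its whole exon length, most of which held few reads.

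Poly(A)-selected RNA was sequenced from 5 brain regions of male C57BL/6J mice aged 8 to 10 weeks: the cortex, the hippocampus in its dorsal (dHPC) and ventral part (vHPC), and the striatum, likewise dorsal (DS) and ventral (VS). Mice received an intraperitoneal injection of ethanol at 2 g/kg, or saline, either a single time (acute) or daily for 10 d (chronic), and tissue was taken 4 h after the last injection. The 62 libraries form 20 groups of 3 or 4 mice, 1 group for each region, paradigm and treatment, and come from 16 mice, so the regions are not independent of each other. Saline mice of each paradigm were the controls, and no group carried a transgene or a deletion.

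Neat1 (nuclear paraspeckle assembly transcript 1) is the RNA scaffold of paraspeckles, nuclear bodies that hold RNA-binding proteins and edited RNA. Its neighbour Malat1 is a nuclear RNA found in speckles, bodies rich in splicing factors. Meg3, Rian and Mirg are transcribed in the same direction from the maternal copy of the imprinted Dlk1-Dio3 region, and the latter pair carry clusters of small nucleolar RNAs and microRNAs. Miat, also called Gomafu, is a nuclear RNA of neurons that binds splicing factors. Gas5 and Snhg11 are host genes of small nucleolar RNAs, which are cut out of their introns. Gas5 starts with a terminal oligopyrimidine tract, as the messages of ribosomal proteins do.

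In GRCm39, Neat1 (ENSMUSG00000092274) lies on the minus strand at chr19:5874736-5897132 as 1 exon block of 22397 bases. Malat1 (ENSMUSG00000092341) follows on the same strand at chr19:5845717-5853602 with 1 exon block of 7886 bases. Meg3 (ENSMUSG00000021268) is on the plus strand at chr12:109506877-109538165 with 19306 exonic bases, Rian (ENSMUSG00000097451) at chr12:109570242-109628150 with 31981, and Mirg (ENSMUSG00000097391) at chr12:109696198-109715898 with 9658. Miat (ENSMUSG00000097767) is on the minus strand at chr5:112361094-112377261 with 10543 exonic bases in 5 blocks. Gas5 (ENSMUSG00000053332) is on the plus strand at chr1:160861793-160866118 with 4228 exonic bases and 229 listed isoforms. Snhg11 (ENSMUSG00000044349) is on the plus strand at chr2:158217558-158228071 with 8527 exonic bases, and is the only member that the file lists as protein coding.

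The ends of Neat1 and Malat1 are shown because the libraries were made from poly(A) RNA and the forms of these RNAs differ in whether a polyadenylation signal precedes their end. Capitals mark the AATAAA polyadenylation signal or the genome-encoded A-rich tract AAAAAGCAAAA, at which these RNAs are known to be cut and to fold into a triple helix in place of a poly(A) tail. Each sequence is the transcribed minus strand, 5′ to 3′, read from GRCm39.
Neat1-216, the short form, last 100 bases, chr19:5892324-5892423: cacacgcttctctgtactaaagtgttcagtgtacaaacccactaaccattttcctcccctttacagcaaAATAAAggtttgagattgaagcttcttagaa
Neat1-201, the long form, last 100 bases, chr19:5874736-5874835: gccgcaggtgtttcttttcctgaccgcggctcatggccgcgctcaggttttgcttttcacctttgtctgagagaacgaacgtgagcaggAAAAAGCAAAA
Malat1, 100 bases up to its A-rich tract, chr19:5846010-5846109: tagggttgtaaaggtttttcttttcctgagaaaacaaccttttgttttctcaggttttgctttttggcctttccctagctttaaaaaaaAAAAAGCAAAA
Malat1-201, last 100 bases of the listed isoform, chr19:5845717-5845816: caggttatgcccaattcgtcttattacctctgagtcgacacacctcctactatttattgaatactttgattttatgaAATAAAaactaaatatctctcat
The short Neat1 form had AATAAA 25 bases before its end, and Malat1-201 had it 17 bases before its end. No AATAAA was found in the last 100 bases of the long Neat1 form. Of 479502 annotated transcripts, 50.1% held AATAAA in their last 100 bases and 0.0709% held the A-rich tract, both searched on the transcribed strand only.

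The Meg3 promoter is shown as the start of the 3 RNAs on chromosome 12 that are described together below, from 250 bases before to 50 bases after the start on the plus strand of GRCm39. Capitals mark TGACGTCA, the full cAMP response element, which reads the same on both strands.
Meg3 promoter, chr12:109506627-109506926: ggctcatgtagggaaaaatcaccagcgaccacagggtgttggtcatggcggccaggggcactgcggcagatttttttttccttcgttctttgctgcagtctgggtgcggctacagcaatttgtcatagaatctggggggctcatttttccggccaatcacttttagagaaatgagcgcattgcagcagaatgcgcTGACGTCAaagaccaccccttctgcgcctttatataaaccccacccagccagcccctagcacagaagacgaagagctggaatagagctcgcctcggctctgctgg
The element was present in 1.13% of 78252 promoters of that length, and its match here is a description of the letters and not of binding.

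Gene counts per library ran from 43173748 to 71164766 in the cortex and dHPC, which were made with an unstranded kit, and from 8149628 to 46564992 in the vHPC, DS and VS, made with a strand-specific kit. Kit and platform follow region and cannot be told apart from it. DS chronic saline replicate 2 had no counts on chromosomes 7, 8, 9, X, Y and the mitochondrial genome. None of the 8 genes lies on those chromosomes, but that library's marker sums lack the genes that do. Values below are CPM, counts relative to the library's total, scaled with TMM factors computed within each region, and log2 fold changes are ethanol against saline from each comparison's own fit, so the pair can differ slightly. The interaction is the chronic minus the acute log2 fold change. FDR is the Benjamini-Hochberg adjusted p over all genes tested, called below 0.1, with edgeR's quasi-likelihood test as the main test and DESeq2 as the alternative. In tissue of this kind, fewer cells of a type and less RNA per cell cannot be told apart.

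Levels in saline mice differed more between regions for some of these RNAs than for others. Each median covers the 6 saline libraries of a region, or 5 in the DS, where the incomplete library was left out. Meg3 had a median of 3210 CPM in the VS, 2920 in the cortex, 2170 in the DS, 1690 in the vHPC and 1220 in the dHPC. Of these neighbours, only the vHPC and dHPC did not overlap. Rian ran from 704 CPM in the VS through 588 in the DS and 497 in the cortex to 364 in the dHPC and 354 in the vHPC, with the DS above the cortex and the cortex above the dHPC in every saline library. Mirg followed a like order at far lower values, from 32.9 CPM in the VS and 28.3 in the DS to 10.6 in the dHPC, and all neighbours overlapped.

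Miat was lowest in the striatum. Its medians were 433 CPM in the cortex, 400 in the vHPC, 270 in the dHPC, 186 in the VS and 115 in the DS, and each neighbouring pair overlapped. Snhg11 was at 1440 CPM in the cortex, 1280 in the VS, 1200 in the DS, 701 in the vHPC and 618 in the dHPC, so both hippocampal regions stood at the bottom. Gas5 ran from 108 CPM in the VS to 69.1 in the cortex, where it stood below the next region, the vHPC at 88.0 CPM, without overlap. Malat1 lay between 709 CPM in the DS and 460 in the dHPC, and Neat1 between 92.3 CPM in the dHPC and DS and 37.0 in the cortex, all neighbours overlapping. These levels compare libraries of different kits and of separate scaling.

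**Figure D1:**
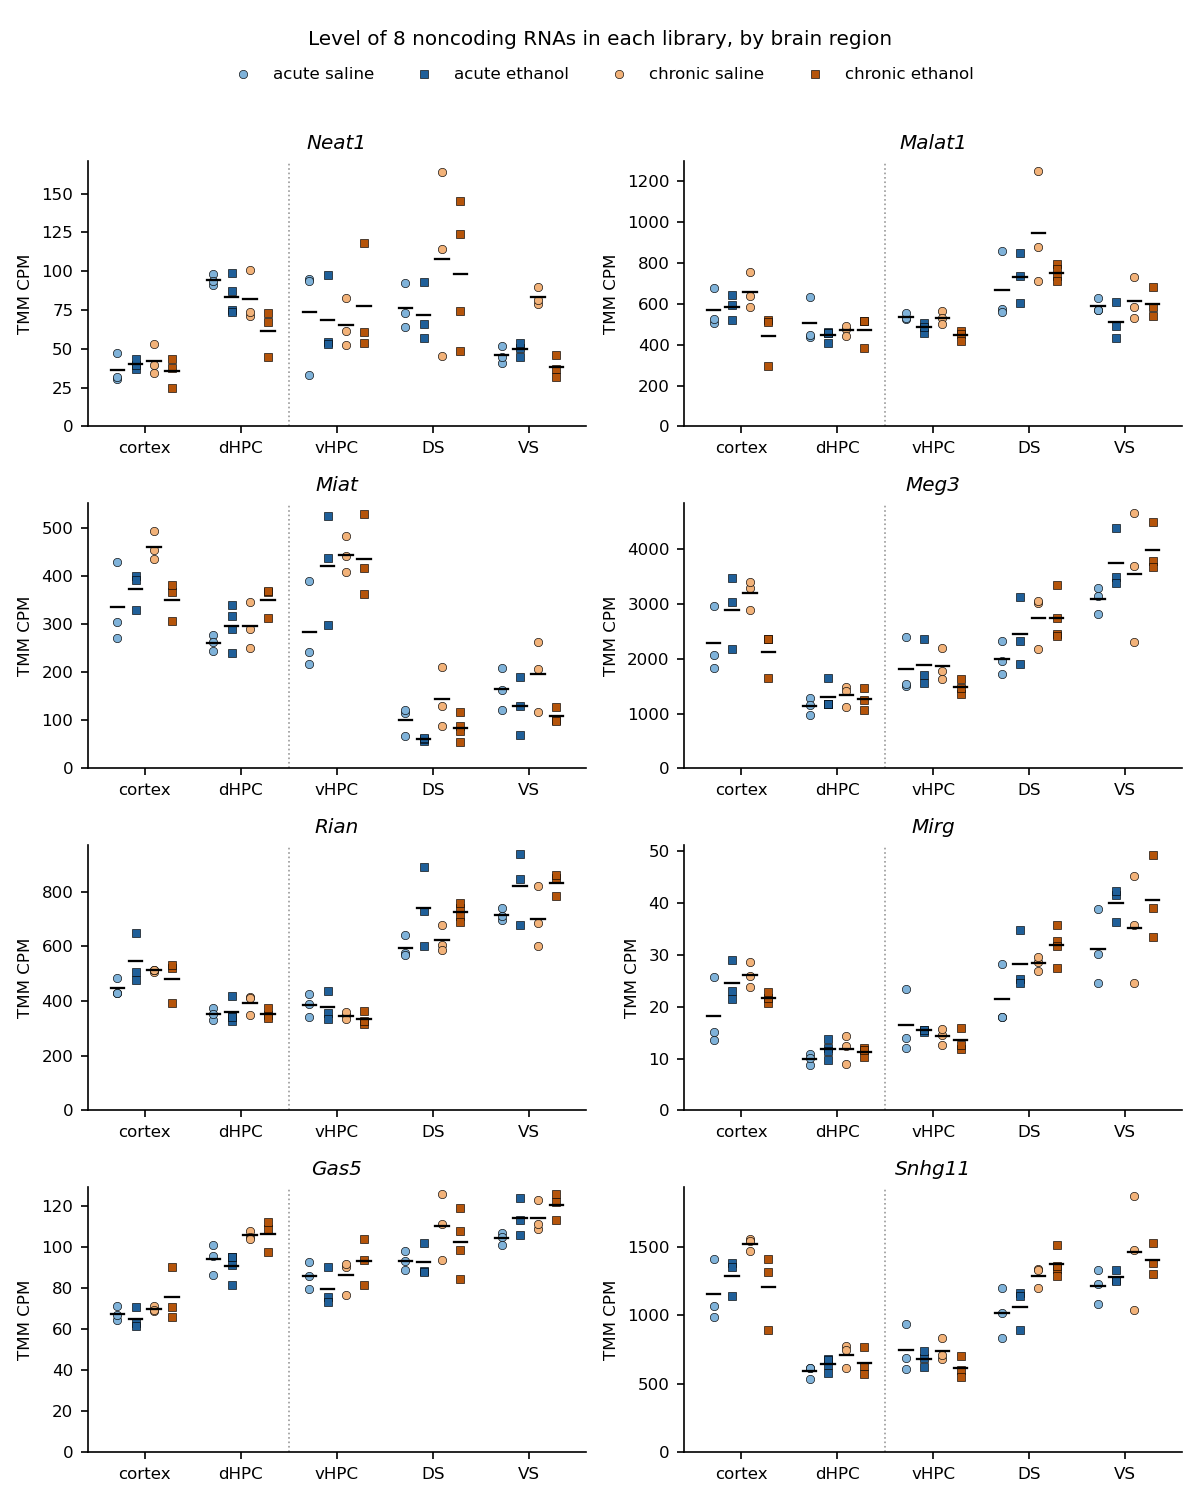
TMM-scaled CPM of each RNA (vertical axes, 1 panel each) in every library of the 5 regions (horizontal axis), with saline and ethanol of both paradigms as 4 groups of points and a bar at each group mean; the dotted line parts the unstranded from the strand-specific libraries. Miat is highest in the cortex and vHPC and lowest in the DS, and in the VS the Neat1 points of chronic saline (78.9 to 89.8 CPM) stand above the other 3 groups.

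The exon length used for values per kilobase covers all listed isoforms of a gene, such as 85 for Meg3 and 229 for Gas5. These values therefore depend on the annotation as well as on abundance, and they compare genes only roughly. Per kilobase of exon, Snhg11 and Meg3 had the highest values of these RNAs in the cortex, with 169 and 151 CPM per kb. Malat1 followed with 77.5, Miat with 41.1, Gas5 with 16.4 and Rian with 15.5, whereas Mirg and Neat1 had 2.57 and 1.65. In the VS the corresponding values were 150 for Snhg11, 166 for Meg3, 73.1 for Malat1, 17.7 for Miat, 25.5 for Gas5, 22.0 for Rian, 3.4 for Mirg and 2.92 for Neat1. The Neat1 value rests on the whole 22397 bases, most of which held few reads. The count of the long isoform equalled the gene count in 62 of 62 libraries, and the short isoform, 3042 bases or 13.6% of that length, held nearly all of it. Outside the short form lay a median of 1.69% of Neat1 counts in the cortex, 1.54% in the dHPC, 0.309% in the vHPC, 0.338% in the DS and 0.414% in the VS, or 0 to 88 counts over 19355 bases. The Neat1 values below therefore come mostly from reads over the bases of the short form.

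Over the 15 comparisons, edgeR called a single member once, Miat in the DS after acute ethanol. DESeq2 called members in 5 comparisons: Rian in the cortex (acute), Meg3 and Miat in the cortex (chronic), Miat in the DS (acute), Neat1 and Miat in the VS (chronic), and Neat1 in the interaction in the VS. The share of all genes called sets the scale for these counts and is given with each region.

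**Figure D2:**
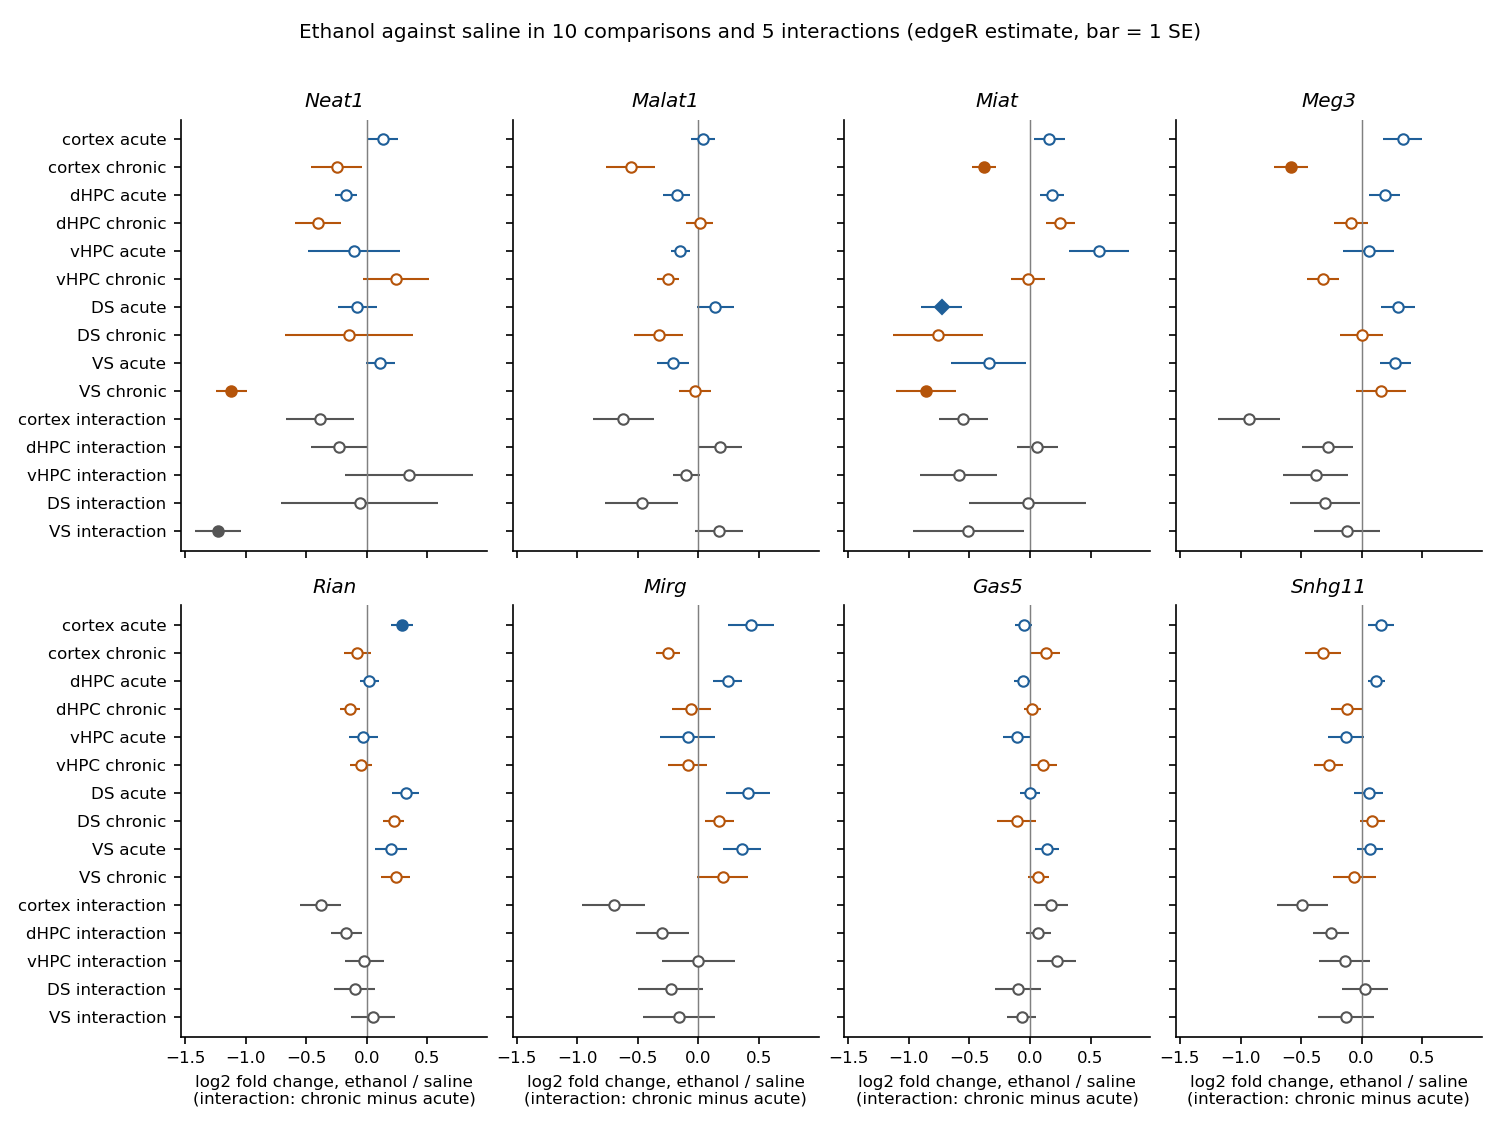
Log2 fold change of ethanol against saline (horizontal axes) for each RNA (1 panel each) in the 10 comparisons and 5 interactions (rows), from edgeR with bars of 1 SE; acute is blue, chronic orange and the interaction grey, filled diamonds passed FDR 0.1 by edgeR, filled circles by DESeq2 only, and open circles by neither. The values farthest from 0 are those of Neat1 in the VS, at -1.12 in the chronic paradigm and -1.23 in the interaction, and the only diamond is Miat in the DS at -0.73 in the acute paradigm.

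Neat1 in the VS was lower after chronic ethanol than after chronic saline by DESeq2 but not by edgeR. Chronic saline libraries held 78.9, 81.4 and 89.8 CPM (replicates 3, 5 and 6; 1258, 1116 and 1052 counts), a mean of 83.4 ± 5.69 (SD, n = 3). Chronic ethanol libraries held 46.0, 37.3 and 31.9 CPM (replicates 1, 4 and 6; 634, 750 and 474 counts), a mean of 38.4 ± 7.12 (SD, n = 3). The groups did not overlap, and the lowest saline value was well above the highest ethanol value. The log2 fold change was -1.12 ± 0.13 (SE), with an edgeR FDR of 0.193 and a DESeq2 FDR of 2.47e-09. In this comparison edgeR called 0 of the 8 RNAs and 0% of 20331 genes, and 2 of the 8 (Neat1 and Miat) had an unadjusted p under 0.05. DESeq2 called the same 2 RNAs and 1.79% of all genes. Groups that did not overlap were seen for 1 of the 8 RNAs, Neat1, and for 16.1% of all genes.

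Acute ethanol left no such gap in the VS. Acute saline libraries held 41.0, 44.9 and 51.9 CPM of Neat1 and acute ethanol libraries 44.6, 50.4 and 53.8 CPM, with a log2 fold change of 0.11 ± 0.12 and an edgeR FDR of 0.909. Chronic ethanol libraries overlapped both acute groups, and chronic saline was the group that stood apart, above every other VS library. The interaction was -1.23 ± 0.19, with an edgeR FDR of 0.298 and a DESeq2 FDR of 6.43e-05. EdgeR called 0 of the 8 RNAs and 0% of genes in this interaction, with 1 of the 8 (Neat1) at an unadjusted p under 0.05, and DESeq2 called Neat1 alone of the 8 and 0.0191% of genes. In the acute comparison in the VS both tools called 0 of the 8, against 0.0399% of genes by edgeR and 0.889% by DESeq2, each with 1 member at an unadjusted p under 0.05 (Mirg by edgeR and Meg3 by DESeq2). Meg3 was the 1 member whose groups did not overlap there, with ethanol higher, against 12.3% of genes.

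Marker sums of other cells also varied between the VS libraries, and their part in the result was not tested. The summed CPM of 12 oligodendrocyte and myelin genes was 5950, 6860 and 8220 in chronic saline and 5100, 6060 and 4520 in chronic ethanol, so the ranges overlapped while the means were 7010 and 5230. In the acute groups the sum ran from 5390 to 5780 in saline and from 5580 to 7600 in ethanol, with Neat1 at like levels in both. Choroid plexus genes summed to 3030 CPM in chronic saline replicate 6, the library with the highest Neat1, and to 25.6 to 238 CPM in the other VS libraries. Leaving out each library in turn gave an edgeR FDR for Neat1 from 0.00665, without chronic saline replicate 5, to 0.706.

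At the isoform level edgeR called 8 Neat1 isoforms in the chronic comparison in the VS, all lower, among 9 isoforms called in all (0.00827% of 108841). Their log2 fold changes ran from -1.09 to -1.16 with an FDR of 0.0568 to 0.0674, and they include the short form Neat1-216 and the long form Neat1-201, which share nearly all their reads. DESeq2 called 16 member isoforms there, 10 of Neat1 and 4 of Miat, lower, and 2 of Rian, higher, against 1.02% of all isoforms. In the interaction in the VS edgeR called 0 member isoforms and 0% of all isoforms, with 11 at an unadjusted p under 0.05, and DESeq2 called 9, all of Neat1, against 0.105%. In the acute comparison in the VS both called 0, against 0.233% by edgeR and 0.708% by DESeq2, with 77 member isoforms at an unadjusted p under 0.05 by edgeR.

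Miat fell in the DS after acute ethanol. Acute saline libraries held 115, 66.7 and 122 CPM (replicates 2, 4 and 6; 1120, 894 and 1660 counts) and acute ethanol libraries 56.9, 61.9 and 63.2 CPM (replicates 3, 4 and 5; 702, 932 and 2821 counts). The groups did not overlap, but saline replicate 4 lay close to the ethanol values and the other two saline libraries far above. The log2 fold change was -0.73 ± 0.17, with an FDR of 0.0293 by edgeR and 0.0852 by DESeq2. Both tools called 1 of the 8 RNAs in this comparison, against 5.15% of 20495 genes by edgeR and 6.4% by DESeq2, and edgeR gave 3 of the 8 (Miat, Mirg and Rian) an unadjusted p under 0.05. Miat was also the 1 member without overlap, against 21.3% of genes. A single call among 8 is too few to set against that share. The call was kept in 4 of the 6 fits that left out a library and was lost without acute saline replicate 2 or replicate 6, the pair of libraries in which Miat was high, with an FDR of up to 0.128. It was also lost with all 4 DS groups in one fit, which holds the incomplete chronic saline library. There the log2 fold change was -0.74 ± 0.35 with an FDR of 0.826, and 0% of genes were called. DESeq2 on halved counts lost the call as well, with an FDR of 0.107.

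In the same libraries the neuronal markers differed between the groups, and their part in the result was not tested. The sum of 9 pallial excitatory neuron genes was 2840 to 3210 CPM in acute saline and 2120 to 2330 in acute ethanol. The sum of 12 striatal projection neuron genes was 8280 to 9780 CPM in saline and 11000 to 11200 in ethanol. The sum of 8 pan-neuronal genes was 4060 to 4510 CPM in saline and 3760 to 3880 in ethanol. That of 6 dentate granule neuron genes was 62.1 to 71.2 and 73.6 to 79.6 CPM. None of these pairs of ranges overlapped. The pan-neuronal and pallial sums were lower and the striatal and dentate sums higher with ethanol. The sum of 6 thalamic neuron genes overlapped, at 68.3 to 125 and 71.8 to 94.5 CPM.

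**Figure D3:**
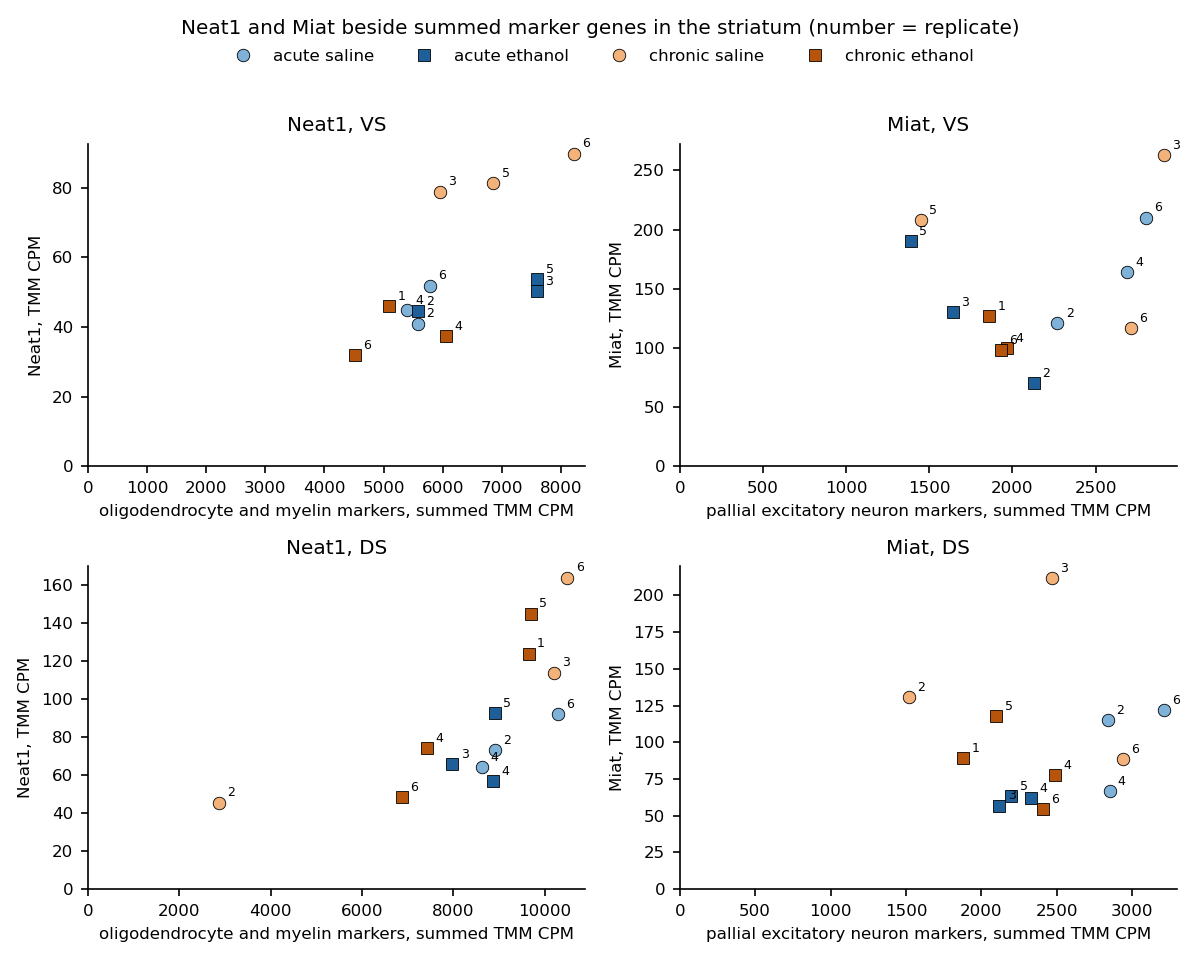
Each point is a library of the VS (top) or DS (bottom), numbered by replicate; the left panels plot Neat1 (CPM) against the summed CPM of 12 oligodendrocyte and myelin genes, and the right panels Miat (CPM) against that of 9 pallial excitatory neuron genes. In the VS the chronic saline libraries lie at 78.9 to 89.8 CPM of Neat1 and 5950 to 8220 CPM of the myelin sum. In the DS the acute ethanol libraries hold the lowest Miat and pallial values of the acute groups. The DS chronic saline point numbered 2 is the incomplete library.

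In the chronic comparison in the DS the Miat values were wide apart within each group, 131, 212 and 88.3 CPM in saline and 89.2, 77.4, 118 and 54.4 in ethanol. The estimate, -0.76 ± 0.37, was about that of the acute comparison but with a larger error, and its edgeR FDR was 0.969. The interaction for Miat in the DS was -0.02 ± 0.48, an estimate whose error is too large to say that the paradigms acted alike. EdgeR called 0 of the 8 and 0% of genes in the chronic comparison and in the interaction, with 0 members at an unadjusted p under 0.05 in each. DESeq2 also called 0 in each, against 1.02% and 0.0142% of genes, with 2 members (Miat and Rian) at an unadjusted p under 0.05 in the chronic comparison. Rian was the 1 member without overlap in the chronic comparison, at 588 to 678 CPM in saline and 691 to 758 in ethanol, against 8.77% of genes, with a log2 fold change of 0.22 ± 0.09 and an edgeR FDR of 0.969. Without the incomplete saline library the chronic estimates in the DS were -0.82 ± 0.34 for Miat, 0.28 ± 0.09 for Rian and -0.51 ± 0.37 for Neat1 (-0.15 ± 0.53 with it), with an edgeR FDR of 0.634, 0.521 and 0.779.

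Outside the striatum the Miat estimates had no single sign, while in the VS both paradigms were below 0, as in the DS. The acute estimate in the VS was -0.34 ± 0.31, with an edgeR FDR of 0.881. For the chronic paradigm in the VS, saline libraries held 263, 208 and 117 CPM of Miat and ethanol libraries 127, 100 and 97.9. The log2 fold change was -0.86 ± 0.25, with an edgeR FDR of 0.337 and a DESeq2 FDR of 0.0222. Here saline replicate 6 lay within the ethanol range and the other two saline libraries above it. The sum of pallial genes in those 3 saline libraries was 2910, 1450 and 2710 CPM, and it was 1860 to 1970 CPM with ethanol. Its part in the result was not tested. In the vHPC acute saline libraries held 217, 242 and 391 CPM of Miat and acute ethanol libraries 438, 299 and 525, an estimate of 0.57 ± 0.25 with an edgeR FDR of 0.414. In the dHPC the chronic estimate was 0.25 ± 0.12 with an edgeR FDR of 0.648.

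In the cortex the estimates of 7 of the 8 RNAs were above 0 after acute ethanol and of 7 of the 8 below 0 after chronic ethanol, but few passed a test. For acute ethanol, edgeR called 0 of the 8 against 1.99% of 25905 genes, with 2 (Rian and Mirg) at an unadjusted p under 0.05. DESeq2 called Rian alone of the 8, against 3.69% of genes. Rian held 428, 428 and 485 CPM in acute saline and 479, 508 and 649 CPM in acute ethanol, which overlap by a single library. Its log2 fold change was 0.29 ± 0.09, with an edgeR FDR of 0.185 and a DESeq2 FDR of 0.0585. Rian was not called by DESeq2 once the counts were halved. Mirg was at 0.43 ± 0.19 and Meg3 at 0.34 ± 0.16, with an edgeR FDR of 0.369 and 0.421. For 0 of the 8 were the acute groups free of overlap, against 17.7% of genes.

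The calls in the acute comparison in the cortex changed with more than one library left out. Without acute ethanol replicate 2, Rian passed by edgeR with an FDR of 0.0633. The number of members called changed most without acute saline replicate 6. That library held the highest saline value of Neat1 (47.1 against 30.5 and 31.8 CPM), Malat1 (675 against 505 and 527), Meg3 (2960 against 1820 and 2070), Miat (430 against 271 and 305) and Snhg11 (1410 against 990 and 1070). Without it, edgeR called 5 of the 8 (Meg3, Miat, Mirg, Neat1 and Snhg11), all higher with ethanol, against 1.42% of all genes (361 genes in place of 515). The sum of myelin genes was 2030 to 2290 CPM in acute saline and 2380 to 3180 in acute ethanol, and that of pallial genes 6780 to 7190 and 6210 to 6390 CPM. These sums did not overlap between the groups, and their part in the result was not tested.

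After chronic ethanol the cortex values were lower for most of the 8. Meg3 held 3280, 3400 and 2880 CPM in chronic saline and 2350, 2360 and 1640 CPM in chronic ethanol, a log2 fold change of -0.58 ± 0.14 with an edgeR FDR of 0.443 and a DESeq2 FDR of 0.0407. Miat held 455, 495 and 436 CPM in saline and 367, 381 and 306 in ethanol, -0.38 ± 0.10, with an FDR of 0.443 by edgeR and 0.0998 by DESeq2. Malat1 held 756, 639 and 583 CPM in saline and 522, 512 and 295 in ethanol, -0.56 ± 0.20, with an FDR of 0.443 and 0.197. In each of these RNAs ethanol replicate 6 was the lowest library, and it was also the lowest for Snhg11 (896 CPM against 1320 and 1410) and Neat1 (24.8 against 37.9 and 43.5).

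EdgeR called 0 of the 8 and 0% of genes in the chronic comparison in the cortex, with 4 of the 8 (Meg3, Miat, Malat1 and Mirg) at an unadjusted p under 0.05. DESeq2 called 2, Meg3 and Miat, both lower, against 0.608% of genes, and gave 5 an unadjusted p under 0.05. For 5 of the 8 (Malat1, Meg3, Mirg, Miat and Snhg11) the groups did not overlap, with ethanol lower, against 18% of all genes. Rian, the neighbour of Meg3, was at -0.08 ± 0.11. The sum of pallial genes was 6220 to 6990 CPM in saline and 6220 to 7640 in ethanol, so it overlapped. Removing each library's trend with exon length moved Meg3 from -0.58 to -0.35, Neat1 from -0.25 to 0.00 and Rian from -0.08 to 0.24, while Malat1, at -0.49, moved little.

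Between paradigms in the cortex, edgeR and DESeq2 called 0 of the 8, against 0% and 0.0791% of genes, and both gave 6 of the 8 an unadjusted p under 0.05. The interactions of those 6 were -0.93 ± 0.26 for Meg3, -0.70 ± 0.26 for Mirg, -0.62 ± 0.25 for Malat1, -0.55 ± 0.20 for Miat, -0.49 ± 0.21 for Snhg11 and -0.38 ± 0.17 for Rian. The edgeR FDR of the 6 was 0.6, and of Neat1 0.698. Gas5 alone had an estimate above 0, at 0.17 ± 0.14. Much of this pattern was shared within libraries, since the same saline and ethanol libraries were high or low for most of the RNAs.

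**Figure D4:**
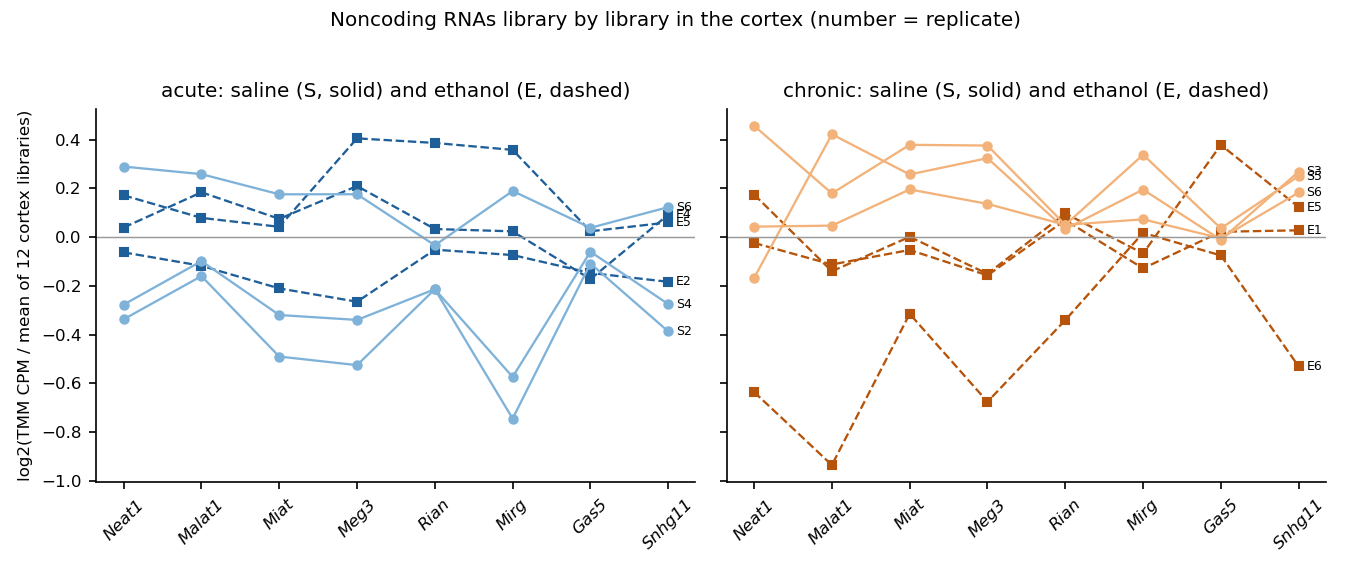
For each RNA (horizontal axes), log2 of its TMM-scaled CPM in each of the 12 cortex libraries over its mean in those libraries (vertical axis), acute on the left and chronic on the right, with 1 line for each library, solid for saline (S) and dashed for ethanol (E), numbered by replicate. Acute saline replicates 2 and 4 lie low and replicate 6 high for most RNAs, and chronic ethanol replicate 6 lies lowest for Malat1 (295 CPM) and Snhg11 (896 CPM), while for Gas5 the library farthest from 0 is chronic ethanol replicate 5 (90.4 CPM).

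Isoforms in the cortex gave the same split between the tools. EdgeR called 0 member isoforms in the acute comparison (1.24% of all isoforms, 171 member isoforms at an unadjusted p under 0.05, lowest FDR 0.103), in the chronic comparison (0%, 152) and in the interaction (0%, 173). DESeq2 called 29 after acute ethanol, 28 of Rian and 1 of Mirg, all higher, against 2.24% of isoforms. It called 4 after chronic ethanol, 3 of Meg3 and 1 of Rian, all lower, against 0.301%, and 0 in the interaction, against 0.264%. Isoforms of a gene share reads and are not independent of each other.

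In the striatum the 3 maternally expressed RNAs of chromosome 12 had acute estimates above 0 that did not pass at the gene level. In the DS these were 0.30 ± 0.14 for Meg3, 0.32 ± 0.11 for Rian and 0.41 ± 0.18 for Mirg, with an edgeR FDR of 0.349, 0.157 and 0.29. Rian held 575, 568 and 643 CPM in acute saline and 731, 603 and 890 in acute ethanol, and Mirg 18.0, 18.1 and 28.3 against 25.4, 24.6 and 34.9 CPM. For both RNAs saline replicate 6 was the library that reached into the ethanol range. In the VS the acute estimates were 0.28 ± 0.13 for Meg3, 0.20 ± 0.13 for Rian and 0.36 ± 0.16 for Mirg. Meg3 held 2810, 3140 and 3280 CPM in VS acute saline and 3480, 3370 and 4370 in acute ethanol, with an edgeR FDR of 0.696.

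Single isoforms did pass in the DS. EdgeR called 28 member isoforms after acute ethanol, 14 of Miat, all lower, with 10 of Rian and 4 of Meg3, all higher, against 3.59% of 108989 isoforms. DESeq2 called 31, 12 of Miat, lower, and 19 of Rian, higher, against 3.64%. After chronic ethanol edgeR called 0 (0% of isoforms, 45 member isoforms at an unadjusted p under 0.05) and DESeq2 24 of Rian, all higher, against 0.513%. In the interaction in the DS both called 0, against 0% and 0.00712%, with 1 member isoform at an unadjusted p under 0.05 by edgeR.

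In the hippocampus none of the 8 RNAs was called in any comparison by either tool. Malat1 in the vHPC came nearest to a gap between groups. It held 525, 532 and 555 CPM in acute saline and 508, 459 and 486 in acute ethanol, and 562, 528 and 500 CPM in chronic saline and 466, 451 and 419 in chronic ethanol. Every ethanol library lay below every saline library of its paradigm, by a small margin. In the acute groups the sum of 8 pan-neuronal genes was 6050 to 6930 CPM in saline and 5470 to 5550 in ethanol, and that of 6 dentate granule neuron genes 172 to 334 and 409 to 601 CPM. Neither pair of ranges overlapped. In the chronic groups the sum of 9 pallial excitatory neuron genes was 8160 to 8930 CPM in saline and 5070 to 6930 in ethanol. That of 8 choroid plexus genes was 27.7 to 209 and 901 to 3210 CPM, and that of 8 endothelial genes 175 to 196 and 153 to 159 CPM. These chronic ranges did not overlap, while the chronic pan-neuronal and dentate sums did. The part of these sums in the result was not tested. For Malat1 the log2 fold changes were -0.15 ± 0.08 and -0.25 ± 0.09, with an edgeR FDR of 0.483 and 0.452. Malat1 was the 1 member without overlap in each of these comparisons, against 17.9% of genes in the acute and 14.8% in the chronic one.

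For the vHPC edgeR called 0% of genes after acute ethanol, 0.0555% after chronic ethanol and 0% in the interaction, with 1, 3 and 0 members at an unadjusted p under 0.05. DESeq2 called 2.9%, 1.08% and 2.02% of genes, with 0, 3 and 0 members at an unadjusted p under 0.05. For the dHPC edgeR called 0.042%, 0% and 0% of genes, with 0 members at an unadjusted p under 0.05 in each, and DESeq2 called 1.07%, 0.859% and 0.00745%, with 2 members (Neat1 and Miat) at an unadjusted p under 0.05 after chronic ethanol. In the dHPC 0 of the 8 had groups without overlap, against 8.25% of genes after acute and 13.9% after chronic ethanol. The estimate farthest from 0 there was that of Neat1 after chronic ethanol, -0.40 ± 0.19, with 71.2, 101 and 73.5 CPM in saline and 72.9, 67.5 and 44.9 in ethanol. The groups overlap, with 2 of the 3 ethanol libraries below every saline library. The sum of myelin genes in these groups was 7040 to 8180 CPM in saline and 5600 to 6420 in ethanol, without overlap, and its part in the result was not tested.

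Isoforms of the 8 RNAs in the hippocampus were called by DESeq2 alone and in the vHPC after acute ethanol alone, 16 in all. Of these, 12 of Malat1 were lower and 4 of Miat higher, against 1.65% of isoforms. EdgeR called 0 in that comparison (0% of isoforms, 35 member isoforms at an unadjusted p under 0.05), in the chronic one (0.0402%, 101) and in the interaction (0%, 76), and DESeq2 called 0 in the chronic comparison and the interaction, against 0.723% and 1.39%. In the dHPC edgeR called 0 in the acute comparison (0.0015%, 103), the chronic one (0%, 8) and the interaction (0%, 4), and DESeq2 0 in each, against 0.704%, 0.506% and 0%.

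Gas5 and Snhg11 were not called in any comparison. Gas5 estimates lay between -0.11 and 0.22 over all 15 comparisons, and its libraries between 61.7 and 90.4 CPM in the cortex, 81.5 and 112 in the dHPC, and 73.1 and 104 in the vHPC. In the striatum they lay between 84.3 and 126 CPM (DS) and between 101 and 126 CPM (VS). The highest cortex library for Gas5 was chronic ethanol replicate 5. Snhg11 estimates lay between -0.49 (interaction in the cortex) and 0.16. Its chronic libraries in the cortex held 1560, 1540 and 1470 CPM in saline and 1320, 1410 and 896 in ethanol, which did not overlap, with a log2 fold change of -0.32 ± 0.15 and an edgeR FDR of 0.49.

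Because the cortex and dHPC libraries carry no strand information, each member was checked for exons of other genes on the opposite strand. Without strand, reads from a gene and its antisense partner cannot be told apart. Gm37376, listed wholly within Malat1 on the other strand, had a median of 64.9 CPM in the cortex and 58.9 in the dHPC, but 0, 0.134 and 0.148 CPM in the vHPC, DS and VS. This is 11.7% and 12.5% of the Malat1 counts in the unstranded libraries and at most 0.197% in any strand-specific library. Gm26953, which overlaps 3433 bases of Miat, had 109 and 79.9 CPM in the unstranded regions and 0.491, 0.149 and 0.296 CPM in the others. Its share of the Miat counts was 26.1% to 28.6% in the unstranded libraries and at most 0.714% in any strand-specific one.

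**Figure D5:**
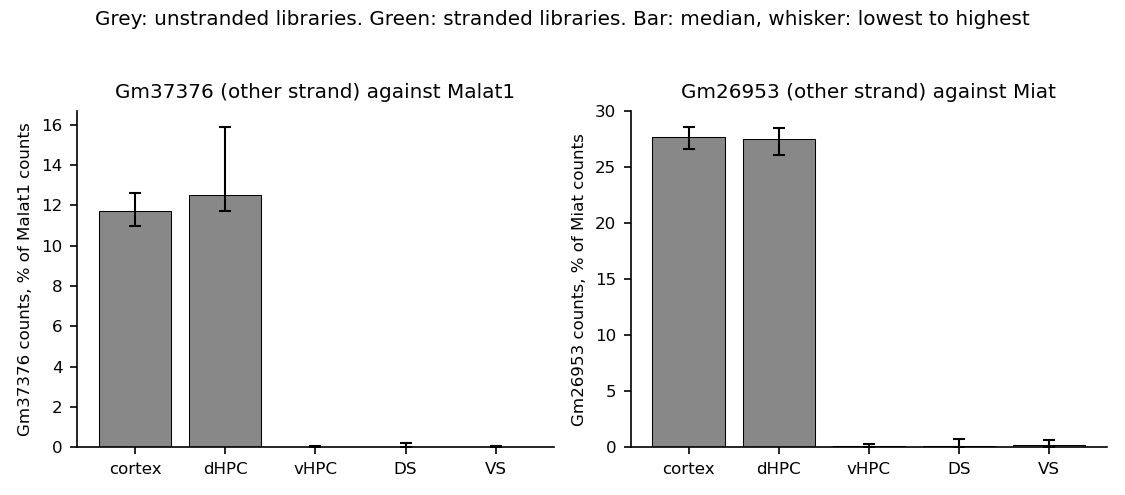
Counts of the gene on the other strand as a percentage of the member's counts (vertical axis) in each region, Gm37376 over Malat1 and Gm26953 over Miat, with bars at the median and whiskers from the lowest to the highest library. Both are high in the cortex and dHPC (medians 11.7% and 12.5%, and 27.7% and 27.5%) and near 0 in the vHPC, DS and VS.

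Of the genes on the other strand, some had estimates near those of the members and others did not. After chronic ethanol in the cortex Gm37376 was at -0.59 ± 0.19 beside -0.56 for Malat1, and Gm26953 at -0.40 ± 0.11 beside -0.38 for Miat, each with an edgeR FDR of 0.443. In these unstranded libraries reads of Malat1 and Miat can be counted for Gm37376 and Gm26953, so the paired estimates are not independent of each other. Zbtb37, which overlaps Gas5, was at -0.78 ± 0.15 there, with an FDR of 0.443 by edgeR and 0.00622 by DESeq2, beside 0.13 for Gas5, and Frmd8os at 0.10 ± 0.26 beside -0.25 for Neat1. Frmd8os overlaps Neat1 by 412 bases and had 0.756 and 1.67 CPM in the cortex and dHPC and 0.0892 to 0.382 CPM elsewhere, small beside Neat1 itself. Gas5 overlaps exons of Zbtb37 by 134 bases, and the median of Zbtb37 was alike in both kinds of library, at 18.3 to 24.8 CPM. Meg3, Rian, Mirg and Snhg11 overlap no exon on the other strand.

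The genes whose library-to-library pattern was most like each member lay in its own locus for some members and elsewhere for others. Likeness is Pearson's r of log2 CPM, centred on each group's mean, over 61 libraries (DS chronic saline replicate 2 left out) and 18924 other genes. The libraries of a mouse and of a batch are not independent, so r is a description. For Neat1 the nearest were Gm55525 (0.96) and Gm55524 (0.93), both listed within it, and then Cers2 (0.89), which makes very long chain ceramides of myelin. For Miat they were Gm55678 (0.92) and Gm55680 (0.91), listed within it, and Grk3 (0.87), a receptor kinase gene also on chromosome 5. Malat1 was nearest to Gm55521 (0.86), listed within it, Ints6l (0.77) and B230334C09Rik (0.74). The genes listed within these members lie wholly in their exons on the same strand, so reads over them were counted for both.

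Meg3 was nearest to Gm27000 on chromosome X (0.94) and to Mir770 (0.90) and Mir1906-1 (0.88), which lie wholly within the exons of Meg3 on its strand and so share its reads. Rian was nearest to Meg3 (0.81), Gm27000 (0.77) and Gm24895 (0.73), and Mirg to Gm27000 (0.79), Mir1906-1 (0.78) and Meg3 (0.75). Snhg11, on another chromosome, was also nearest to Meg3 (0.85), then to Gm57223 (0.80) and Gm27000 (0.79). Gas5 was nearest to Rps27a (0.62), Srsf5 (0.61) and Rpl21 (0.60), of which the first and the last encode ribosomal proteins. Neat1 and Malat1, neighbours on chromosome 19, had an r of 0.28 over all libraries, 0.61 in the cortex and dHPC and 0.13 in the other 3 regions.

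Genes that work with these RNAs were looked at as lists. EdgeR called 0% to 5.15% of all genes over the 15 comparisons, so a count of 0 in a short list says little about its genes. Of 20 paraspeckle proteins, which assemble on Neat1, edgeR called 0 in every comparison, with list medians from -0.12 to 0.08. Of 14 nuclear speckle proteins it called 0, with medians from -0.22 to 0.06, the lowest in the chronic comparison and the interaction in the cortex. In that chronic comparison 12 of the 14 were below 0 and 2 above. Of the 20 paraspeckle proteins 16 were below 0 there and 4 above. Of 20 snoRNA host genes it called 0, with medians from -0.08 to 0.08. The median over all genes lay between -0.02 and 0.07 throughout. DESeq2 called Ewsr1 lower (-0.32, interaction in the vHPC), the speckle protein gene Srrm2 lower (-0.42, cortex, chronic) and the snoRNA host Snhg14 lower (-0.75, cortex, chronic), each the only gene of its list called there. It called 2.02% of all genes in that interaction and 0.608% in that chronic comparison.

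For the imprinted Dlk1-Dio3 region, 6 other genes were listed. EdgeR called Begain lower after acute ethanol in the cortex, -0.33 ± 0.06 with an FDR of 0.034, and no other gene of this list in any comparison. The list median ranged from -0.93 to 2.85 over the comparisons, as 5 or 6 genes, some of low count, were tested. DESeq2 called the paternally expressed Rtl1 lower after chronic ethanol in the cortex, -0.9 with an FDR of 0.0108, and in the interaction there, -1.02 with an FDR of 0.0906. It also called Dio3, a thyroid hormone deiodinase, higher after chronic ethanol in the VS, 1.73 with an FDR of 0.0489, and Begain lower after chronic ethanol in the vHPC, -0.43 with an FDR of 0.0982. Against 0% to 5.15% of all genes, edgeR called 0 of 16 ribosomal protein genes with the tract that Gas5 shares. Their median was 0.2 in the chronic comparisons in the cortex and in the VS, and 0.16 after acute ethanol in the VS and in the interaction in the cortex, with 16 of 16 above 0 in each of these. DESeq2 called Rps12 (0.29) and Rpl3 (0.36) higher after chronic ethanol in the VS.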

How the data were processed

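Per the labels and the study's methods, the deposited counts were made by trimming reads with cutadapt 5.0, aligning them to GRCm39 with STAR 2.7.10a and counting exons of Ensembl 113 with featureCounts 2.0.6, by gene and by isoform. The authors counted every library as reverse-stranded, and counted reads of several map positions or several features each time. The deposited counts were neither normalized nor filtered. They appear to count single reads and not pairs: in the strand-specific libraries 145 to 289 genes had a count of 1 and 2082 to 2942 a count of 2, against 791 to 1128 and 2483 to 2961 in the others. Of the 37 strand-specific libraries, Neat1 and Gas5 were even in 37, but Meg3 in 20, Mirg in 19, Rian in 18 and Snhg11 in 16. The precision at a given count may therefore be lower than that count implies, and counting error is not the only error. Fits with the counts halved were added after seeing the data. The deposited exon length, another column of the files, gave the values per kilobase.

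Samples were grouped by the labels. A feature was tested where 2 or more samples of a group had 5 or more counts, with edgeR 4.0.16 (quasi-likelihood F test, TMM, limma 3.58.1, R 4.3.3) on the groups of each comparison and Benjamini-Hochberg adjustment over all features tested. DESeq2 1.42.0, the study's tool, was an alternative. The others were DESeq2's size factors in edgeR, no filter on low counts, a minimum of 10 counts in each sample, a fit to the 4 groups of the region together, removal of the trend with exon length, genes without other-strand overlap, chromosomes complete in every DS library, the replicate number as a block, and leaving out libraries singly.

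All 8 members are named in every comparison. Genes overlapping a member on the other strand, the 3 genes most like each member and the called genes of 6 lists (paraspeckle proteins, nuclear speckle proteins, snoRNA hosts, ribosomal proteins, Dlk1-Dio3 genes and other abundant noncoding RNAs) are named by rule, except for a result that is not reported here. The members and lists were chosen with earlier results of these data known. Replicates are separate mice. Overlaps, motifs and sequences come from the GRCm39 genome and GENCODE M39, in which 56384 of the 56415 genes were found. Tables were read with pandas 2.3.3 and numpy 2.4.6 under Python 3.11.15 and plots drawn with matplotlib 3.10.9.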

Additional observations from a re-analysis of the deposited data

Results flagged for a closer look

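Malat1 and Meg3 in the dHPC after acute ethanol each had a library apart from the other 3 of its group. For Malat1 the gap between the lowest library and the next was 0.905 of the group's range, with 407 CPM against 457, 457 and 463 CPM. For Meg3 the gap below the highest was 0.984 of the range, with 1650 CPM against 1170, 1180 and 1180 CPM. Dixon's critical value for 4 samples is below both, 16 such values were looked at, and chance alone exceeds that value about 1 time in 20. Neat1 in the VS had an interaction of paradigm and treatment of -1.23 by DESeq2, which passed the threshold there and did not pass by edgeR.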

How the results depend on the processing

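The number of members called was recomputed in 255 fits and stayed within 1.5 times its value in 231. The edgeR count was 0 in every comparison but the acute one in the DS, so most of these were a 0 that stayed 0. In the chronic comparisons in the cortex, dHPC and DS, edgeR called 0 of all genes whichever library was left out. These numbers are therefore not a measure of how stable a call is. Over 2016 single values, nearly all of which recompute a value that had not passed, 1967 stayed on the same side of the threshold. Of the rest, 45 passed it and 4 no longer passed it. The sign was kept in 1909. DESeq2 called 1 member after acute and 2 after chronic ethanol in the cortex, 2 after chronic ethanol in the VS and 1 in the interaction there. Without a filter on low counts edgeR called 4 and 1 in the cortex (acute and chronic), 5 in the interaction in the cortex, 1 in the interaction in the vHPC, 4 in the DS (acute), 2 in the VS (chronic) and 1 in the interaction in the VS, where it called 3.96%, 0.281%, 0.787%, 2.7%, 5.81%, 1.88% and 0.597% of all genes. With all 4 groups in one fit it called 0 in the DS (acute) and 1 in the VS (chronic), against 0% and 0.00478% of genes. That DS fit holds the incomplete chronic saline library. With the counts halved edgeR changed no count, and DESeq2 called 1 in the cortex (chronic), 0 in the DS (acute), 2 in the VS (chronic) and 1 in the interaction in the VS. The share of all genes called on halved counts is not given here, so these counts have no scale beside them. Leaving out each library gave 0 to 5 members in the cortex (acute), 0 to 2 in the DS (acute), 0 to 2 in the VS (chronic) and 0 to 1 in the interaction in the VS. Over the same fits the number of all genes called also moved. It ran from 42 to 794 in the cortex (acute), 581 to 1088 in the DS (acute), 0 to 615 in the VS (chronic) and 0 to 2 in the interaction in the VS. The libraries behind these ranges were acute saline replicate 6 in the cortex (5 members), acute ethanol replicate 2 in the cortex (Rian), acute saline replicates 2 and 6 in the DS (0 members without replicate 2), acute ethanol replicate 4 in the DS (Miat and Rian), chronic saline replicate 5 in the VS (Neat1 and Rian) and chronic ethanol replicate 1 in the VS (Neat1, interaction). The cause of these changes was not tested.

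For isoforms, DESeq2 called 29 and 4 in the cortex (acute and chronic), 16 in the vHPC (acute), 24 in the DS (chronic), 16 in the VS (chronic) and 9 in the interaction in the VS. At least 10 counts in every sample gave 53 in the DS (acute). Leaving out each library gave 0 to 168 in the cortex (acute), 0 to 20 in the interaction there, 0 to 10, 0 to 3 and 0 to 82 in the vHPC (acute, chronic and interaction), 3 to 146 in the DS (acute), and 0 to 1, 0 to 56 and 0 to 8 in the VS (acute, chronic and interaction). The share of all isoforms called in the stricter and left-out fits is not given here, and isoforms of a gene share reads. These counts therefore cannot tell a change in the members from a change in all isoforms.

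The replicate numbers were not taken to pair the mice: same-numbered deviations from the group means had correlations of 0.07 and 0.11 in the acute cortex, 0.03 and -0.24 in the chronic cortex and -0.04 to 0.03 in the acute dHPC. Where groups share 1 number they reached 0.34 in the chronic dHPC and 0.12 in the acute vHPC, and were -0.01 to 0.09 in the others. With the number as a replicate block, 6 members were called in the cortex (acute), where all genes called went from 515 to 789, and 143 genes in place of 0 in the cortex (chronic). A block could not be fitted to the other pairwise comparisons but the acute dHPC, since their groups share fewer than 2 numbers. Isoform alternatives were limited to DESeq2, the stricter filter and the left-out libraries. The planned test of the share of Neat1 reads outside the short form was not run, as its isoforms do not share a start. Depth limits Neat1 most in the VS, where its libraries held 420 to 1258 counts.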

Other observations

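Of 25 other abundant noncoding RNAs, 21 or 22 were tested, and edgeR called 0 in every comparison, against 0% to 5.15% of all genes. The list medians ran from -0.14 to 0.11 beside medians over all genes of -0.02 to 0.07. DESeq2 called 10 values among these RNAs, against 0.00745% to 6.4% of all genes over the comparisons. After acute ethanol these were Dlx6os1 in the cortex (-0.38), Sox2ot (-0.42) and Tunar (0.49) in the dHPC, Firre in the vHPC (0.35) and the DS (0.23), and Oip5os1 (-0.76), Mir9-3hg (-0.55) and Mir22hg (-0.75) in the VS. After chronic ethanol they were Ftx in the cortex (-0.67) and Rmst in the vHPC (1.83 ± 0.54, SE). Oip5os1 had the lowest FDR, 0.000821, and Sox2ot, the transcript that overlaps the Sox2 gene, followed with 0.00191.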
